A study of Mus musculus with 12 samples.

Results

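Interferon-stimulated antiviral genes were followed in mouse CD8+ T cells that were expanded in culture with or without dichloroacetate (DCA), a small molecule that inhibits the pyruvate dehydrogenase kinases. The members were 39 listed genes, of which the 36 with a symbol in the authors' deposited table were used, out of 56748 genes in the count table. The 3 others had few counts over all 12 libraries: Oas2 had 69, Oasl1 had 46 and Ifi44 had 3. All 36 members passed the filter on low counts and were tested among 15688 genes. The question was how far the antiviral programme of T cells differs after expansion with DCA, and whether it did so alike in the 2 experiments.

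RNA was sequenced from 12 libraries, 1 untreated and 1 DCA culture from each of 6 mice, with 3 mice in each of 2 experiments. Spleen cells carrying a transgenic T cell receptor were stimulated for 24 h with the receptor's peptide, grown for 6 days with 0 or 5 mM DCA, and sorted for CD8 on day 7. In experiment 1 the strain is given as OT-1, genotype C57BL/6-Tg(TcraTcrb)1100Mjb/J, whose receptor recognises an ovalbumin peptide (SIINFEKL). In experiment 2 it is Pmel-1, a B6.Cg-Thy1a/Cy background with the transgene Tg(TcraTcrb)8Rest/J, whose receptor recognises gp100. The sample titles call all cells Pmel-1, but the libraries of experiment 1 carried the OT-1 receptor segment Trbv12-1 at 202 to 236 CPM (counts scaled to an equal library size), against 0.0588 to 0.493 CPM in experiment 2. The Pmel-1 segment Trbv14 stood at 1679 to 2577 CPM in experiment 2 and had a count of 0, which allows up to 3 counts, in every library of experiment 1. Strain and experiment therefore cannot be told apart. The mice of each experiment carried 1 designed receptor transgene, which limits the cultures as a model of a mixed T cell population.

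Each library held between 28039700 and 41051100 counts, and no 2 libraries of a group agreed within sampling noise. The summed level of 6 CD8 T cell markers was 5148 to 6013 CPM untreated and 5562 to 6020 CPM with DCA in experiment 1. The sums in experiment 2 were 4799 to 5463 CPM untreated and 4041 to 4345 CPM with DCA, without overlap, and 4 of the 6 fell there, Cd3d, Cd3g, Cd8a and Cd8b1, by log2 fold changes of -0.33 to -0.36. Over both experiments 1 of the 6 fell, Cd8b1, with -0.21 (edgeR adjusted p = 0.022). The 4 CD4 T cell markers summed to 5.44 to 8.55 CPM over all libraries. Dendritic cell markers summed to at most 1.44 CPM and neutrophil markers to at most 1.98 CPM. B cell markers summed to 15.2 to 24.3 CPM in untreated and 28.5 to 42.0 CPM in DCA libraries, nearly all of it Cd79b, which rose with DCA (log2 fold change 0.75), while the B cell marker Ms4a1 stood at no more than 0.0303 CPM in any library. Monocyte and macrophage markers summed to 7.18 to 15.2 CPM in untreated and 12.04 to 33.3 CPM in DCA libraries, most of it Cd68, and Csf1r and Adgre1 stood at no more than 0.0554 CPM. NK cell markers summed to 14.5 to 17.9 CPM untreated and 18.7 to 21.2 CPM with DCA in experiment 1, and to 1.24 to 1.58 and 1.03 to 6.55 CPM in experiment 2. Of the 3 tested NK markers, Tyrobp rose with DCA over both experiments, with 2.06 (edgeR adjusted p = 0.012, and 0.0636 with a term for each mouse), while Ncr1 stood at no more than 0.156 CPM. The part of these markers in the results on DCA and in the differences between the experiments was not tested.

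Type I interferons bind the receptor pair IFNAR1 and IFNAR2, and the kinases JAK1 and TYK2 then phosphorylate STAT proteins, among them STAT2, which joins IRF9 in a complex that binds the interferon-stimulated response element (ISRE) before many antiviral genes. Interferon gamma acts on genes with the gamma-activated site (GAS). The products sense foreign nucleic acids, degrade or edit them, block translation, and stop viruses at membranes, and T cells hold many of them at a resting level without infection.

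Sequences before the start sites are shown for members on which the results turn, with 20 bases on either side of the matches. The RefSeq promoter table (build GRCm38.p6, 250 bases before to 50 after each start) held 28 of the 36 members by symbol, and Dhx58, Ifi27, Mx1, Parp14, Parp9, Rtp4, Usp18 and Zbp1 were not matched. Capitals mark the ISRE core, searched as GAAA, any 2 bases and GAAA again on both strands with overlapping matches kept, except in Irf1, where they mark the GAS, searched as TTCNNNGAA on both strands. Each window is written 5′ to 3′ on the gene's strand. Ifit1 lies at chr19:34640765-34640833 (+ strand) and Ifit3 at chr19:34583353-34583436 (+), the pair with the lowest log2 fold changes with DCA over both experiments. Ifi203 at chr1:173942498-173942547 (-) and Ifi208 at chr1:173673587-173673636 (+) are relatives, each called with DCA in 1 of the experiments. Isg15 at chr4:156200855-156200916 (-), Bst2 at chr8:71537567-71537622 (-) and Irf1 at chr11:53769904-53769952 (+) are shown for comparison.
Ifit1: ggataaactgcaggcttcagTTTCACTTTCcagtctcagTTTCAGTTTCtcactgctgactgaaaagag
Ifit3: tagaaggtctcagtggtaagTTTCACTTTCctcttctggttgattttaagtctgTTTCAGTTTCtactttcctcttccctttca
Ifi203: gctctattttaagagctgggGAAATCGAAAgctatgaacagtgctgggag
Ifi208: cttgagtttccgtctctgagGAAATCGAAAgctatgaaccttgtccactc
Isg15: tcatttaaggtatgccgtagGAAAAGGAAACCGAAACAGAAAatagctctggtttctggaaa
Bst2: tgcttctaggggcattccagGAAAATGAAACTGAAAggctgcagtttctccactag
Irf1: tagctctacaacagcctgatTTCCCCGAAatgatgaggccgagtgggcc

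Ifit1 and Ifit3 each held 2 matches written in the same letters, TTTCACTTTC and then TTTCAGTTTC, the nearer beginning 85 bases before the start in Ifit1 and 122 in Ifit3. Isg15 held 3 overlapping matches and Bst2 held 2. Ifi203 and Ifi208 each held 1 match, both spelled GAAATCGAAA, at 35 and 58 bases before the start. The ISRE core was present in 13 of the 28 matched members, or 46.4%, against 3.99% of all 27025 genes of the table. The GAS was present in 10 of 28, or 35.7%, against 9.55% of genes, and 4 members held both. The median log2 fold change with DCA was -0.27 over the 13 members with the ISRE core and -0.17 over the 15 without. Within the experiments the medians with and without it were both -0.31 in experiment 1 and both -0.04 in experiment 2. A match describes letters in a window and not a bound site.

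Levels of the members covered a wide range. Per kilobase of gene length, the membrane proteins Ifitm2 and Ifitm3, which hinder virus entry, stood highest, at 1429 and 707 CPM per kilobase over all libraries. Ifi27, Bst2, Isg20 and Ifi47 followed at 123, 106, 96.4 and 82.0 CPM per kilobase, and these 6 lay at or above the percentile 93.9 of the 15067 genes that have a length. Isg15, the ubiquitin-like modifier that often leads an interferon response, was at 1.40 CPM per kilobase, and its protease Usp18 was at 1.05. At the low end, Ifit3 had 0.470 and the 2-5A synthetase relative Oasl2 had 0.0910 CPM per kilobase.

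With DCA, 9 of the 36 members were lower and 1 was higher over both experiments (27.8% called, against 16.8% of all genes tested, by edgeR's quasi-likelihood test with a Benjamini-Hochberg adjusted p under 0.05). By direction, 9.80% of all genes were called lower and 7.01% higher. The genes that fell were Ifit1, Ifit3, Ifi208, Ifi209, Ifitm3, Ifi47, Ifi27, Rtp4 and Xaf1, and Samhd1 rose. The median log2 fold change of the 36 was -0.18, with 23 below 0, and the median of all genes was -0.02. In a new fit on the 9803 genes with at least 5 CPM in 3 libraries, the median of the 30 members kept was -0.03. That of all genes in this fit was -0.007. In mixed RNA, fewer cells that express a gene and less RNA of it per cell cannot be told apart. All 10 calls were absent when the term for experiment was left out of the model, where 46 of 15688 genes were called. In the authors' deposited table, 8 members had a false discovery rate under 0.05, all of them lower, where 10.5% of genes passed and 5.42% were lower. In that table Ifi27 (0.0559) and Samhd1 (0.0917) were not under 0.05.

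IFIT proteins bind foreign RNA and block its translation. Ifit1 was at 22.2, 10.1 and 15.6 CPM in mice 1, 2 and 3 of the untreated cultures of experiment 1, and at 0, 0.323 and 0.662 CPM in their DCA cultures. In experiment 2 it was at 2.20, 0.485 and 0.805 CPM untreated and 0.411, 0.748 and 0.630 CPM with DCA. The untreated libraries of experiment 1 stood above the 9 others, while in experiment 2 the groups overlapped. The log2 fold change with DCA was -3.22 ± 0.83 (SE) over both experiments (edgeR adjusted p = 0.0152), and the gene was lower in 5 of 6 mice. It was -5.59 ± 0.72 in experiment 1 (edgeR adjusted p = 0.000329) and -0.95 ± 0.64 in experiment 2 (edgeR adjusted p = 0.489). With a term for each mouse, the call over both experiments was lost (edgeR adjusted p = 0.0535).

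Ifit3 had 4.41, 0.924 and 1.24 CPM in the untreated and 0.267, 0.538 and 0.818 CPM in the DCA cultures of experiment 1. Experiment 2 gave 0.305, 0.697 and 0.208 CPM untreated and 0.235, 0.0554 and 0.151 CPM with DCA. The gene was lower with DCA in 6 of 6 mice, 1 untreated library of experiment 1 was far above the rest, and the groups of experiment 2 overlapped. Its log2 fold change over both experiments was -1.75 ± 0.53 (edgeR adjusted p = 0.0324). The call was lost with a term for each mouse (edgeR adjusted p = 0.125). It was also lost without any 1 of 5 libraries, which were mouse 1 untreated and mice 1 and 2 with DCA of experiment 1 and mouse 2 in either arm of experiment 2 (edgeR adjusted p of up to 0.145). Ifit2, the third of the family here, had a log2 fold change of 0.05 ± 0.25 and was not called. Ifit2 and Ifit3 are adjacent genes with 3 genes between them and Ifit1, and reads of close copies in this family may be divided between them.

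Among the members grouped as sensors, Ifi208 and Ifi209 of the PYHIN family fell, and neither the RNA helicases Ifih1 and Dhx58 nor Zbp1 was called. Ifi208 was at 25.2, 19.4 and 32.8 CPM untreated and 21.6, 17.9 and 22.7 CPM with DCA in experiment 1. The second experiment gave 26.7, 23.7 and 18.4 CPM untreated and 4.94, 8.75 and 5.77 CPM with DCA. The DCA libraries of experiment 2 lay below all others, and the groups of experiment 1 overlapped. The log2 fold change was -0.31 ± 0.23 in experiment 1 (edgeR adjusted p = 0.391) and -1.82 ± 0.24 in experiment 2 (edgeR adjusted p = 0.000876). Over both it was -1.05 ± 0.26 (edgeR adjusted p = 0.0119).

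Its neighbour Ifi209 had 94.3, 94.3 and 122 CPM untreated and 87.6, 75.8 and 66.7 CPM with DCA in experiment 1. Experiment 2 gave 70.4, 69.7 and 69.5 CPM untreated and 41.4, 51.7 and 34.9 CPM with DCA. The groups did not overlap in either experiment, and the log2 fold change over both was -0.57 ± 0.11 (edgeR adjusted p = 0.00256). The third relative, Ifi203, went the other way in experiment 1, from 10.7 to 18.9 CPM untreated to 22.7 to 35.9 CPM with DCA, a log2 fold change of 0.96 ± 0.23 (edgeR adjusted p = 0.0111). In experiment 2 its value was -0.02 ± 0.23. These PYHIN genes lie close together and resemble each other, so that reads may be divided between them.

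Ifitm3, which hinders the fusion of virus with endosomes, was at 676, 858 and 693 CPM untreated and 536, 471 and 610 CPM with DCA in experiment 1. It was at 404, 393 and 300 CPM untreated and 314, 247 and 248 CPM with DCA in experiment 2. Every mouse had less with DCA, with overlap between the groups in experiment 2 only, and the log2 fold change over both was -0.45 ± 0.09 (edgeR adjusted p = 0.00456). Ifitm2, a close copy with 1 gene between them, had -0.04 ± 0.08, a value that turned to 0.14 under cyclic loess scaling. Bst2, or tetherin, which holds budding virus at the cell surface, fell in experiment 1 from 89.8 to 99.5 CPM to 55.5 to 71.8 CPM, a log2 fold change of -0.55 ± 0.10 (edgeR adjusted p = 0.00252). In experiment 2 its value was 0.02 ± 0.10.

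Of the GTPases, Ifi47 was at 258, 215 and 204 CPM untreated and 135, 169 and 172 CPM with DCA in experiment 1. Levels in experiment 2 were 216, 257 and 217 CPM untreated and 178, 203 and 209 CPM with DCA. The groups overlapped in neither experiment. The log2 fold change over both was -0.37 ± 0.09 (edgeR adjusted p = 0.0103), with a fall in 6 of 6 mice. Mx1, which is known to be defective in many laboratory strains, had -0.28 ± 0.26 and was not called.

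Of the 2 nucleases and nucleotide enzymes, 1 rose. Samhd1, which depletes the nucleotides that viral DNA synthesis needs, was at 238, 159 and 210 CPM untreated and 273, 234 and 259 CPM with DCA in experiment 1. It was at 247, 283 and 295 CPM untreated and 302, 380 and 311 CPM with DCA in experiment 2. The groups overlapped slightly in experiment 1 and not in experiment 2, and all 6 mice had more with DCA. The log2 fold change over both was 0.30 ± 0.09 (edgeR adjusted p = 0.0329). The call was lost in 7 of the 12 fits that left out 1 library (mouse 2 or 3 untreated or mouse 1 or 3 with DCA of experiment 1, mouse 1 or 2 untreated or mouse 2 with DCA of experiment 2), with an edgeR adjusted p of up to 0.106. The RNA exonuclease Isg20 had -0.22 ± 0.08 (edgeR adjusted p = 0.0904).

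Of 4 other interferon-induced proteins, 3 fell over both experiments. Ifi27, a small mitochondrial protein, was at 168, 139 and 192 CPM untreated and 125, 130 and 141 CPM with DCA in experiment 1. Those of experiment 2 were 233, 226 and 232 CPM untreated and 191, 191 and 203 CPM with DCA. The groups of experiment 2 did not overlap, those of experiment 1 did slightly, and the log2 fold change over both was -0.29 ± 0.07 (edgeR adjusted p = 0.0105). Under cyclic loess scaling the call was lost (limma adjusted p = 0.124).

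Rtp4, a chaperone of membrane receptors that also restrains some viruses, had 14.2, 13.3 and 25.1 CPM untreated and 6.38, 7.46 and 13.0 CPM with DCA in experiment 1. Experiment 2 gave 6.20, 7.91 and 3.89 CPM untreated and 1.62, 4.32 and 2.87 CPM with DCA. Each mouse had a lower level with DCA, the groups overlapped in experiment 2 only, and the log2 fold change over both was -0.998 ± 0.262 (edgeR adjusted p = 0.0167). Its values within the experiments were alike, at -0.97 ± 0.37 and -1.03 ± 0.39.

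Xaf1, which opposes the apoptosis inhibitor XIAP, had 50.1, 39.3 and 44.3 CPM untreated and 35.3, 29.4 and 38.2 CPM with DCA in experiment 1. Experiment 2 gave 22.9, 26.5 and 21.96 CPM untreated and 17.4, 20.7 and 17.1 CPM with DCA. No group overlapped with its untreated counterpart, and the log2 fold change over both was -0.37 ± 0.10 (edgeR adjusted p = 0.0146). Without untreated mouse 2 of experiment 2 the call was lost (edgeR adjusted p = 0.0531).

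**Figure D1:**
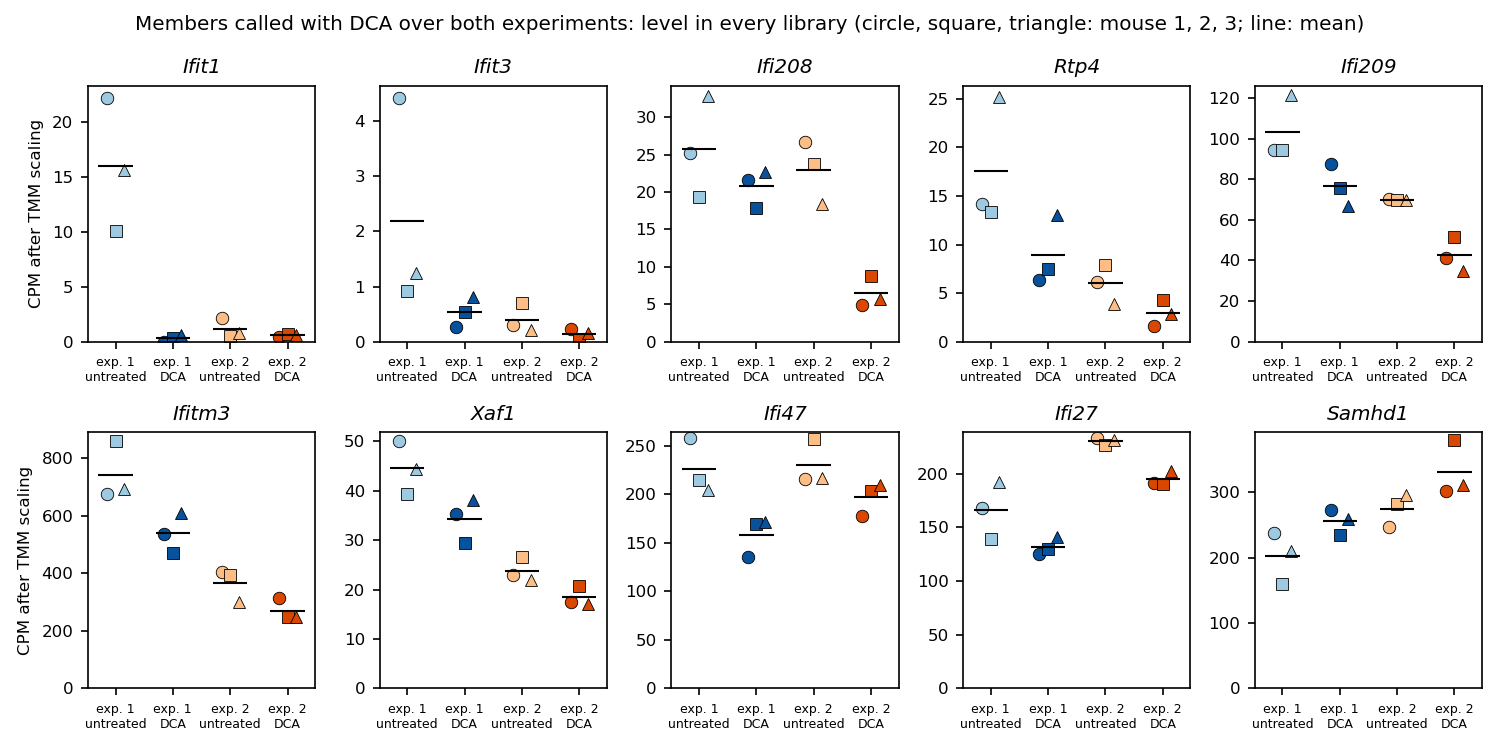
Level of the 10 members called with DCA over both experiments, in CPM on a linear axis from 0, in every library of the 4 groups; symbols mark mice 1 to 3 and lines mark group means. Ifit1 is high only in the untreated libraries of experiment 1 (10.1 to 22.2 CPM), Ifi208 is low only in the DCA libraries of experiment 2 (4.94 to 8.75 CPM), and Samhd1 is the 1 gene higher with DCA.

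The remaining roles held no call over both experiments. The 4 transcription factors Stat2, Irf1, Irf7 and Irf9 ranged from -0.17 to 0.44 on the log2 scale. The 5 members of the ISG15 system and the ubiquitin ligases (Isg15, Usp18, Trim25, Dtx3l and Rnf213) ranged from -0.73 to 0.04. The 5 enzymes that act on double-stranded RNA (Eif2ak2, Adar, Oas1a, Oas3 and Oasl2) ranged from -1.33 to 0.23, with SEs of 0.55 for Oas1a and 0.97 for Oasl2, which had few counts. The ADP-ribosylation enzymes Parp9 and Parp14 had 0.16 ± 0.09 and 0.27 ± 0.10.

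Within experiment 1, 7 members were called lower and 3 higher (27.8% called), against 16.7% of all genes called, which were 1733 lower and 889 higher of 15688. The median was -0.31, and that of all genes was -0.03. The median of the members was -0.18 without untreated mouse 1 and -0.16 under cyclic loess scaling. In a new fit on the 9803 genes with at least 5 CPM in 3 libraries, the median of the 30 members kept was -0.02. That of all genes in this fit was 0.01. Beside Ifit1, Ifitm3, Bst2, Ifi47 and Ifi27, the genes that fell were Irf9, the DNA-binding partner of STAT2, with -0.49 ± 0.14 (edgeR adjusted p = 0.0285), and Ifi35, with -0.40 ± 0.09 (edgeR adjusted p = 0.00719). Beside Ifi203, those that rose were Stat2, with 0.72 ± 0.23 (edgeR adjusted p = 0.0474), and Parp9, with 0.37 ± 0.11 (edgeR adjusted p = 0.0286). Stat2 and Irf9, parts of the same complex, had values of opposite sign. Groups did not overlap for 13 members that were lower and 3 that were higher, against 18.0% and 11.3% of all genes. The calls of Ifi203, Ifit1, Bst2, Ifi47 and Ifi35 held in every fit that left out 1 library. Those of Irf9, Stat2, Ifi27, Ifitm3 and Parp9 held in 3, 4, 2, 5 and 8 of 12. Under cyclic loess scaling the calls of Ifi35 (limma adjusted p = 0.0549), Stat2, Irf9, Ifitm3 and Ifi27 were lost. In the fit on the 2 groups compared, Ifi35 was also not called (edgeR adjusted p = 0.0696). Ifitm3 (0.0547), Parp9 (0.0831), Stat2 (0.108), Irf9 (0.153) and Ifi27 (0.187) lost their calls there as well (edgeR adjusted p). The calls of Ifi203, Ifit1, Bst2 and Ifi47 held in that fit. With a term for each mouse, Irf9 was not called (edgeR adjusted p = 0.0549).

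Within experiment 2, 2 members were called, both lower, against 4.57% of all genes called, 2.20% lower and 2.37% higher. They were Ifi208 and Ifi209, the latter with -0.71 ± 0.14 (edgeR adjusted p = 0.0137), a call lost without DCA mouse 1 of experiment 2 (edgeR adjusted p = 0.0514). The median of the 36 was -0.04 and that of all genes was 0.00. Leaving out any 1 library of experiment 2 gave a median of the members between -0.12 (without untreated mouse 1) and -0.06 (without DCA mouse 3). The median of all genes moved too, to -0.04 without untreated mouse 1 and -0.05 without DCA mouse 3. In the same libraries 4 of 6 CD8 T cell markers were lower with DCA, as given above. Groups did not overlap for 5 members that were lower and 3 that were higher, against 14.6% and 15.6% of all genes.

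**Figure D2:**
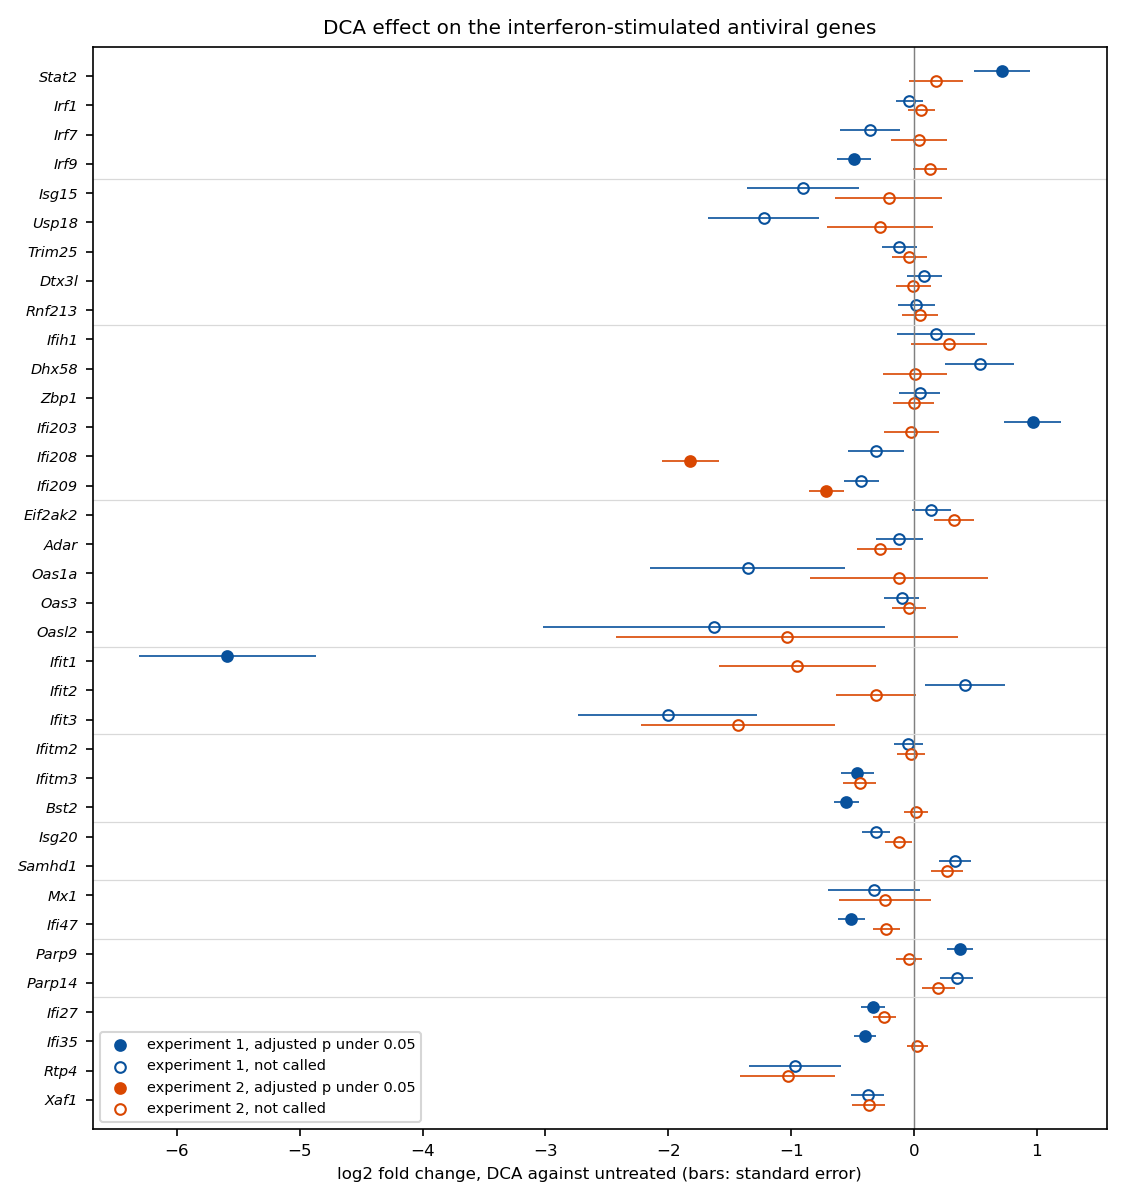
Log2 fold change with DCA (horizontal axis, bars are SE) of each member in experiment 1 (blue) and experiment 2 (orange), in blocks by role; filled points have an edgeR adjusted p under 0.05. Filled points are 7 below and 3 above 0 in experiment 1 and 2 below 0 in experiment 2, with Ifit1 farthest left at -5.59.

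The difference of the DCA effect between the experiments was called for 0 of 36 members by edgeR, against 0.331% of all genes (0.0510% lower and 0.280% higher). DESeq2 called 2 members lower and 2 higher, where it called 458 of 15688 genes in either direction. Nearest to the threshold were Ifit1, with a difference (experiment 2 minus experiment 1) of 4.64 ± 0.95 (edgeR adjusted p = 0.0554), and Ifi208, with -1.51 ± 0.32 (edgeR adjusted p = 0.0641). Bst2 had 0.57 ± 0.14 (edgeR adjusted p = 0.0931), and Ifi203 had -0.99 ± 0.32 (edgeR adjusted p = 0.177). Mouse by mouse, the median change of the 36 members was -0.31, -0.16 and -0.17 in experiment 1 and -0.04, -0.03 and -0.10 in experiment 2. The median over all genes lay between -0.05 and 0.01 in the same mice.

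**Figure D3:**
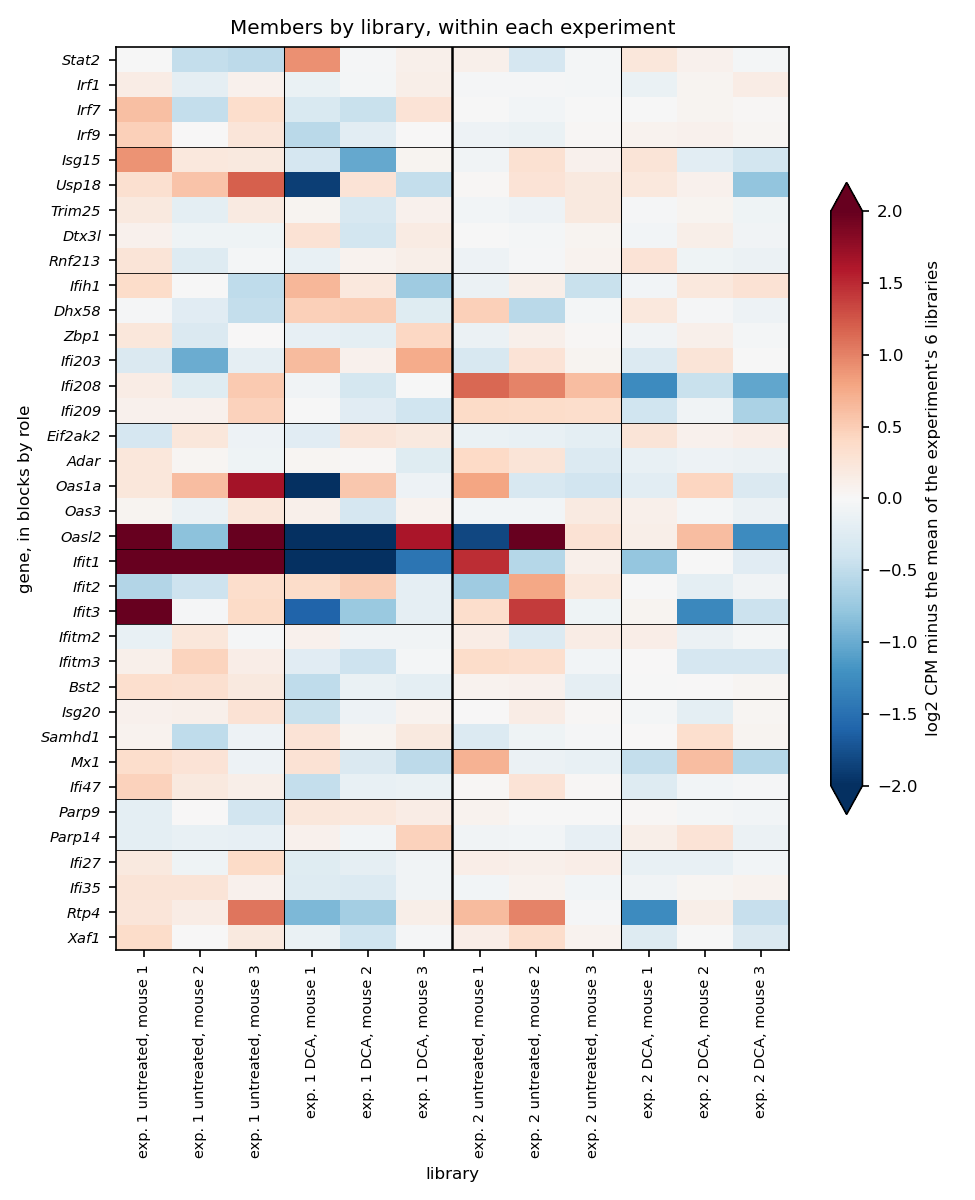
Log2 CPM of each member in each of the 12 libraries minus the mean of its experiment's 6 libraries (colour, cut at -2 and 2), in blocks by role. A strong contrast is seen in Ifit1 between the untreated and DCA libraries of experiment 1, and most members stay pale, near 0, in experiment 2.

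More members were called between the experiments than with DCA, as was the case among all genes. The experiments also differed in the number of genes detected and in their scaling factors, as given above. In untreated cultures 11 members were lower and 12 higher in experiment 2 than in experiment 1, against 51.8% of all genes called, 25.2% lower and 26.7% higher. Farthest apart was Ifit1, as its values above show, with a log2 fold change of -3.78 ± 0.62 (edgeR adjusted p = 0.000125). Ifit3 had -2.43 ± 0.74 (edgeR adjusted p = 0.0124), but -1.42 without untreated mouse 1 of experiment 1 (edgeR adjusted p = 0.144). Its call was also lost without untreated mouse 1 or 3 of experiment 2.

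Dhx58, the helicase LGP2 that tunes RNA sensing, was on the high side in experiment 2. It had 2.57, 2.24 and 1.87 CPM untreated and 3.70, 3.73 and 2.22 CPM with DCA in experiment 1. The cells of experiment 2 had 16.4, 8.09 and 11.5 CPM untreated and 13.6, 11.6 and 11.01 CPM with DCA. The libraries of the 2 experiments did not overlap, and the log2 fold change was 2.43 ± 0.28 in untreated (edgeR adjusted p = 3.71e-06) and 1.90 ± 0.27 in DCA cultures (edgeR adjusted p = 3.47e-05).

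The transcription factors Stat2, Irf1 and Irf7 were higher in untreated cultures of experiment 2, by 1.55 ± 0.23, 1.00 ± 0.11 and 1.50 ± 0.24 on the log2 scale. Effectors went both ways. Ifitm3 was lower by a log2 fold change of -1.02 ± 0.14, and Xaf1 and Rtp4 by -0.91 ± 0.14 and -1.55 ± 0.38. Oas3, Ifi27 and Samhd1 were higher, by 0.91 ± 0.14, 0.47 ± 0.10 and 0.44 ± 0.13. Of all members, 11 were called lower and 12 higher, as given above. Parp9 and its neighbour Parp14, which flank Dtx3l, differed in opposite directions, by 1.36 ± 0.11 and -0.96 ± 0.13, and Dtx3l had 0.94 ± 0.14. Ifitm2 had -0.77 ± 0.12, which turned to 0.10 under cyclic loess scaling. That scaling moved the median of all genes from 0.11 to -0.01, and it also moved Ifitm3, which had -0.32 and was not called (limma adjusted p = 0.062).

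In DCA cultures 9 members were lower and 16 higher in experiment 2, against 52.3% of all genes called. Ifit1, the member farthest apart in untreated cultures, had 0.86 ± 0.75 there and was not called, and Ifi208, at -0.17 ± 0.22 in untreated cultures, had -1.68 ± 0.24 (edgeR adjusted p = 2.71e-05). Groups did not overlap for 11 members lower and 12 higher in untreated cultures, where 28.4% and 31.5% of all genes had no overlap. In DCA cultures the counts were 10 lower and 17 higher, against 27.6% and 33.9%.

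**Figure D4:**
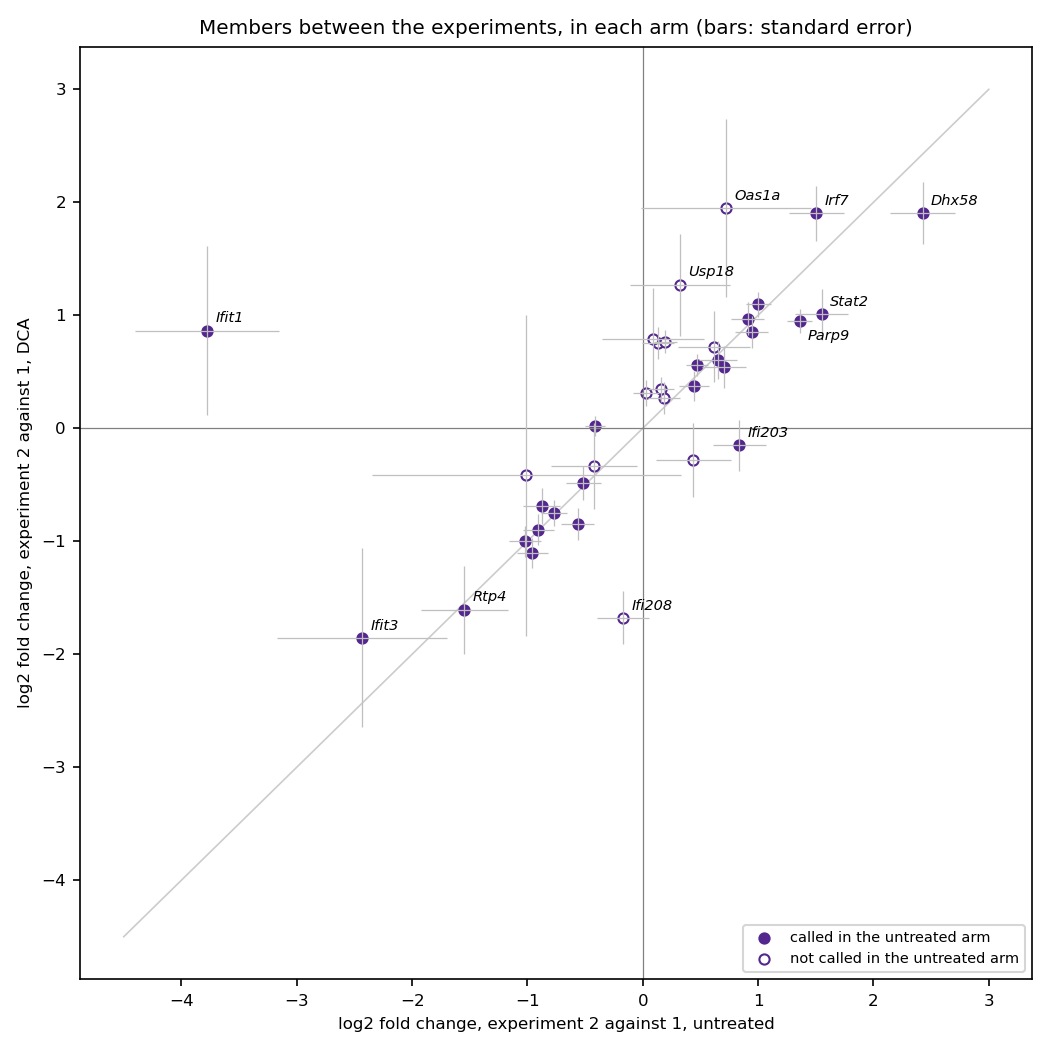
Log2 fold change of each member in experiment 2 against experiment 1 in untreated (horizontal) and DCA (vertical) cultures, bars are SE and filled points are called in untreated cultures; the grey line marks equal values. Dhx58 lies far right at 2.43, while Ifit1 (-3.78 and 0.86) and Ifi208 (-0.17 and -1.68) lie off the line.

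Genes that carry the interferon signal were examined beside the members. Of 15 receptor and proximal signalling genes, 1 fell with DCA over both experiments and 0 rose, where 9.80% of all genes fell and 7.01% rose. The gene was Pias1, an inhibitor of activated STAT proteins, with -0.36 ± 0.08 (edgeR adjusted p = 0.00626). Within experiment 1, 3 of the 15 were called lower and 0 higher, where 1733 of 15688 genes were lower and 889 higher. The receptor chains Ifnar1 and Ifnar2 had -0.06 ± 0.09 and -0.26 ± 0.10 (edgeR adjusted p = 0.0922). Socs1, a feedback inhibitor of JAK kinases, had -0.27 ± 0.12 over both (edgeR adjusted p = 0.127) and -0.56 in experiment 1 (edgeR adjusted p = 0.00832).

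Of 11 interferon genes, 1 passed the filter, and 4 had a count of 0 in every library, which allows up to 3 counts in each. Ifng, the gene of interferon gamma, was at 0.741 to 0.883 CPM untreated and 0 to 0.287 CPM with DCA in experiment 1. Experiment 2 held 0.273 to 1.12 CPM untreated and 0.194 to 0.378 CPM with DCA. Its log2 fold change was -2.18 ± 0.68 (edgeR adjusted p = 0.0394), lower in 6 of 6 mice, and the call held in 3 of the 12 fits that left out 1 library. With a term for each mouse it was lost (edgeR adjusted p = 0.073).

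Of 6 other interferon regulatory factors, Irf4, which activated T cells induce through their receptor, rose with 0.45 ± 0.13 (edgeR adjusted p = 0.0272) and Irf8 fell with -0.31 ± 0.08 (edgeR adjusted p = 0.0156). With a term for each mouse, Irf4 was not called (edgeR adjusted p = 0.0634). Of 11 tested genes that sense nucleic acids upstream of interferon, the kinase gene Ikbke rose with 0.44 ± 0.13 (edgeR adjusted p = 0.024) and Sting1, the adaptor of cytosolic DNA sensing, fell with -0.18 ± 0.06 (edgeR adjusted p = 0.0448). The calls of Ikbke and Sting1 held in 6 and 1 of the 12 fits that left out 1 library.

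Of 46 further antiviral interferon-stimulated genes that were tested, 5 fell and 1 rose, with a median of -0.11, where 9.80% of all genes fell and 7.01% rose. Shisa5 went from 561 to 594 CPM untreated to 397 to 448 CPM with DCA in experiment 1, with a log2 fold change over both of -0.35 ± 0.05 (edgeR adjusted p = 0.000337). Ifi206, another PYHIN gene, had -0.75 ± 0.13 (edgeR adjusted p = 0.002), and the nuclear body protein gene Sp110 had -0.51 ± 0.10 (edgeR adjusted p = 0.00446). Phf11b rose, with 0.40 ± 0.10 (edgeR adjusted p = 0.011), in 6 of 6 mice.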

How the data were processed

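CD8+ T cells sorted on day 7 gave cDNA by a SmartSeq kit with 15 amplification cycles, per the labels' protocols. The labels name 2 technical batches and do not say which samples each held. The build was GRCm39, and STAR 2.7.10a, fastp 0.23.2 and, for the authors' tests, edgeR 3.36.0 are named, per the submitters' processing notes. Which counting tool, annotation and strand setting were used is not stated there, and reads of genes that overlap or lie antisense to each other cannot be told apart. The deposited count table holds raw counts for 56748 genes per library. The authors' deposited edgeR table holds log2 fold changes, log2 CPM, p-values and false discovery rates, and gene lengths. The gene length in bases deposited by the authors was used for levels per kilobase.

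From the counts, genes were filtered with filterByExpr by group, leaving 15688, and tested with edgeR 4.0.16 (R 4.3.3): TMM scaling, the quasi-likelihood test (2-sided), and Benjamini-Hochberg adjustment over all genes tested, with a threshold of 0.05. DCA over both experiments was fitted with terms for experiment and treatment on 12 libraries; all other comparisons are contrasts of the 4 group means from 1 fit. Levels are CPM after TMM scaling, and the SE of a log2 fold change is its size divided by the square root of F. Total counts of 28039700 to 41051100 limit precision most for genes with few counts. The fit over both experiments was run on simulated counts in which DCA had the same effect in each experiment. The other comparisons were not tried on simulated data. Untreated and DCA cultures of 1 mouse are paired by the labels. Their deviations from the group means correlated at 0.0443 to 0.0834, against -0.0689 to -0.0044 between different mice. Deviations from a mean of 3 libraries sum to 0, so positive values within mice force values below 0 between mice. The 2 ranges are therefore not independent. The p-values of the contrasts of group means measure the spread between 3 mice per group, each with 1 culture per arm. The fit over both experiments has no term for a DCA effect that differs between them. Its p-values therefore also hold that difference as spread.

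Alternatives were RLE size factors, cyclic loess scaling and voom with limma 3.58.1, DESeq2 1.42.0, no filter, at least 5 CPM in 3 libraries, a term per mouse, a fit on the 2 groups compared, a log2 fold change of at least 1, no term for experiment, and leaving out each library. Values in every library are given for members called with DCA over both experiments or in the difference between experiments and for the 3 members farthest apart between untreated cultures; of other lists, up to 3 called genes per direction are named by adjusted p, with Ifnar1, Ifnar2, Ifng and Socs1; genes withheld for evaluation are not reported here. Bst2 and Ifi203 were given ranges after their values were seen. The members and lists were chosen with earlier results of these data known.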

Additional observations from a re-analysis of the deposited data

How the results depend on the processing

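Over both experiments, 9 members were called lower and 1 higher. Members called higher were 2 under cyclic loess scaling, 2 under DESeq2, 3 without a filter and 2 with at least 5 CPM in 3 libraries. Of all genes, 2638 of 15688 were called in either direction as reported, 2267 under loess scaling and 3456 under DESeq2. Without a filter 2915 of 38665 were called, and 2572 of 9803 with the 5 CPM filter. Without a term for experiment, 0 members were called lower and 0 higher, and 46 of 15688 genes were called. With a log2 fold change of at least 1, 3 members were lower and 0 higher. In experiment 1, 4 members were lower under loess scaling, 11 under DESeq2 and 11 without a filter. There 5 were higher under DESeq2 and 5 with the 5 CPM filter. The fit on 2 groups gave 3 lower and 1 higher, and the fold limit 1 and 0. Of all genes, 2622 of 15688 were called there as reported, 2124 under loess scaling and 3267 under DESeq2. Without a filter 2934 of 38665 were called, with the 5 CPM filter 2372 of 9803, and in the fit on 2 groups 1251 of 13526. In experiment 2, 4 members were lower under DESeq2, without a filter and in the fit on 2 groups, and 1 with the fold limit. Of all genes, 717 of 15688 were called there as reported and 1512 under DESeq2. Without a filter 1116 of 38665 were called, and 1564 of 14826 in the fit on 2 groups. The difference of the DCA effect gave 2 members lower and 2 higher under DESeq2 and without a filter, and 1 and 1 with the 5 CPM filter. Of all genes, 52 of 15688 were called for it as reported and 458 under DESeq2. Without a filter 566 of 38665 were called, and 77 of 9803 with the 5 CPM filter. Between the experiments, 7 members were lower in untreated cultures under loess scaling, and the fold limit gave 4 lower and 5 higher in both arms. In untreated cultures 8135 of 15688 genes were called under loess scaling, against 8131 as reported. The share of all genes that passed the fold limit was not counted. The cause was not tested for any of these changes. Leaving out 1 library gave 7 to 10 lower and 0 to 2 higher over both, 4 to 10 and 1 to 3 in experiment 1, 2 to 3 and 0 to 0 in experiment 2, and 0 to 1 each for the difference. Between the experiments it gave 9 to 11 lower and 12 to 13 higher untreated, and 8 to 10 and 12 to 17 with DCA. The fits that left out 1 library tested 16279 to 16410 genes. Of these genes they called 1981 to 2588 over both experiments, 1759 to 2653 in experiment 1 and 210 to 824 in experiment 2. For the difference they called 1 to 217.

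With a term for each mouse (the replicate block), Ifit1 (edgeR adjusted p = 0.0535) and Ifit3 (0.125) lost their calls over both experiments, as did Irf9 in experiment 1 (0.0549), and no count of member calls moved by over 1.5 times. No paired analysis was possible between the experiments because each mouse belongs to 1 experiment. Signs turned only for uncalled values over both experiments: Ifitm2 was 0.135 under loess scaling and 0.0105 with the 5 CPM filter, and leaving out 1 library gave -0.078 to 0.0164 for it, -0.0666 to 0.2804 for Ifit2, -0.0245 to 0.0498 for Irf1, -0.0161 to 0.101 for Rnf213, -0.0787 to 0.0751 for Zbp1, -0.0254 to 0.1099 for Dtx3l and -0.0819 to 0.0115 for Ifnar1. Between the experiments, loess scaling turned Ifitm2 to 0.1049 untreated and 0.0383 with DCA, from called falls. Depth limits Oasl2, Oas1a, Isg15 and Ifit3, which stood near or below 1 CPM in most libraries. It also limits the size of the fold changes of Ifit1, which stood below 1 CPM in every DCA library. Ifit1 had 0 CPM in DCA mouse 1 of experiment 1.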
